A study of Mus musculus with 36 samples.

Results

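Lavage macrophages of adult Scnn1b-Tg mice raised germ-free (GF) were compared with those of adult Scnn1b-Tg mice raised specific-pathogen-free (SPF). The members are the arrays whose titles give the transgenic genotype at postnatal day (PND) 42 with or without the germ-free label, which are 3 GF and 4 SPF arrays, 7 of the 36 in the series. Scnn1b-Tg (Tg) mice carry a transgene for 1 subunit of the sodium channel ENaC that is driven in club cells of the airways by the Scgb1a1 promoter and dries the airway surface, and wild-type (WT) littermates lack it. For WT mice of the same age there were 3 GF and 4 SPF arrays, which show the same housing difference in the absence of the transgene. They also enter the interaction of housing with genotype and the Tg minus WT differences. With the other arrays of the series they add to the variance on which the tests rest. The strain label of all 14 arrays is C57Bl/6N Tac, each array held RNA of a single mouse, and Ly-6G-positive granulocytes had been removed on beads, which leaves lymphocytes, dendritic and epithelial cells in the sample. GF mice came from a gnotobiotic facility and SPF mice from another, so that microbial status, facility and colony cannot be told apart. The comparison asks what the absence of microbes changes in macrophages of airways that are already obstructed by mucus.

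Resident alveolar macrophages take up inhaled particles and surfactant, and they carry receptors for bacterial products such as lipopolysaccharide and lipopeptides. In type 2 inflammation, interleukins 4 and 13 drive an alternative activation programme with Arg1, Retnla and the chitinase-like proteins as its best known products. CC chemokines call other cells in: Ccl2, Ccl7, Ccl8 and Ccl12 lie in a cluster of related genes and draw monocytes and lymphocytes, and Ccl24 draws eosinophils.

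Values are log2 intensities made by the authors with RMA, and they ran from 1.97 to 12.81 in the 7 Tg arrays. The medians of these arrays lay between 3.77 and 3.85, and a level in or below that range is called near background here. Fold changes against such a level may be understated. The macrophage label fitted the data: all 10 defining macrophage markers were measured and none had both Tg group means near background. The list means were 9.64 to 9.80 in GF and 9.72 to 9.89 in SPF Tg arrays. Across annotated features, GF and SPF Tg arrays correlated with each other at 0.981 to 0.991, against 0.986 to 0.990 among GF and 0.990 to 0.992 among SPF Tg arrays. The number of arrays, 3 against 4, limits the precision. An exact permutation test of 3 against 4 has 35 arrangements and cannot give a two-sided p below 0.0571, so that the tests rest on a variance pooled over the 10 groups of the series.

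The arrays go against the stated sex of the mice in part. The study's methods name male mice, but Xist, the RNA that coats the inactive X chromosome of females, read 9.14 and 9.35 in GF Tg replicates 1 and 2 and 3.15 in replicate 3. The 4 SPF Tg arrays read 2.98 to 3.29. Eif2s3y, a Y-linked gene, mirrored it, with 3.01, 3.20 and 7.82 in the GF and 7.41 to 8.0 in the SPF Tg arrays. The WT mice showed the same pattern, with Xist at 9.62, 9.54 and 3.45 in GF and 3.06 to 3.27 in SPF arrays. So 2 of 3 GF arrays of each genotype read as female and none of the SPF arrays of PND 42 did. The counts are therefore also given for GF Tg replicate 3 alone and with the Xist level as a covariate, and beside the named genes whose calls these end.

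Ccl12 and Ccl8 are adjacent genes on chromosome 11, and both were higher in GF Tg mice. Their start regions are shown because they are the pair that rose with no protein-coding gene between them. Another pair that rose, Ankrd55 and Il31ra on chromosome 13, has 1 such gene between them. The 300 bases (RefSeq, GRCm38.p6) hold 250 bases before the start and 50 from it on, both on the plus strand, at chr11:82101595-82101894 for Ccl12 and chr11:82114935-82115234 for Ccl8. Capitals mark the 3 runs of 8 bases found in both at places within 2 bases of each other.
Ccl12: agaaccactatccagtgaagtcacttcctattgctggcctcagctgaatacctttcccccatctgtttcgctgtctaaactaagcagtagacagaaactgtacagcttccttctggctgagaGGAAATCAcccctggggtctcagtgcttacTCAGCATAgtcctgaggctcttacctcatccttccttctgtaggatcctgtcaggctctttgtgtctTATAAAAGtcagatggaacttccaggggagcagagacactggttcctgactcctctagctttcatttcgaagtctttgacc
Ccl8: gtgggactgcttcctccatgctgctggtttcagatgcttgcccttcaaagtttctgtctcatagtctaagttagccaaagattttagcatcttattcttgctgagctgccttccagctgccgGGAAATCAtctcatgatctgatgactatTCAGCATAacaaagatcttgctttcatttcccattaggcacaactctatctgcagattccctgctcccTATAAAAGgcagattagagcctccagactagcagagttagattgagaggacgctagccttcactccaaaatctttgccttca
The run TATAAAAG, which holds a TATA box, began 31 bases before the start of Ccl12 and 32 before that of Ccl8, and 1.70% of 32851 promoters of this length hold it on either strand. GGAAATCA began 128 bases before both starts (1.21% of promoters) and TCAGCATA 98 and 100 bases before (0.545%). Searched on both strands, neither region holds the STAT6-type motif (TTC and GAA with 4 bases between, in 6.95% of promoters) or the AP-1 motif (TGANTCA, 7.81%). Neither holds the NF-kB motif (GGGA and CC with 4 bases between, 20.7%) or the core of an interferon response element (GAAA and GAAA with 2 bases between, 3.44%).

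Few features separated GF from SPF Tg mice. Of 23099 annotated features, 21 (0.0909%) changed by 2-fold or more with an adjusted p of at most 0.05, and are called here, 14 higher and 7 lower in GF mice. At the adjusted p alone 31 were (0.134%), 19 higher and 12 lower, while 8.08% had an unadjusted p under 0.05. The median difference over all annotated features was -0.003 on the log2 scale. The count rests on single arrays: it was 6 without SPF Tg replicate 2, 8 without SPF Tg replicate 4, 12 without GF Tg replicate 3 and 46 without GF Tg replicate 2. When the 7 arrays were fitted alone, 3 features were called, which were Nnt, Wdfy1 and Lrmda. Of the 31 features at the adjusted p, 5 kept it whichever Tg array was left out, and these were Nnt, Wdfy1, Lrmda, Ccl8 and Enpp5. None of the 31 changed sign under any of 22 settings. On replicate 3 alone, assumed to vary like the other groups, 17 of the 31 passed and 148 features were called, 127 of them higher, and with Xist as a covariate 12 did.

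**Figure D1:**
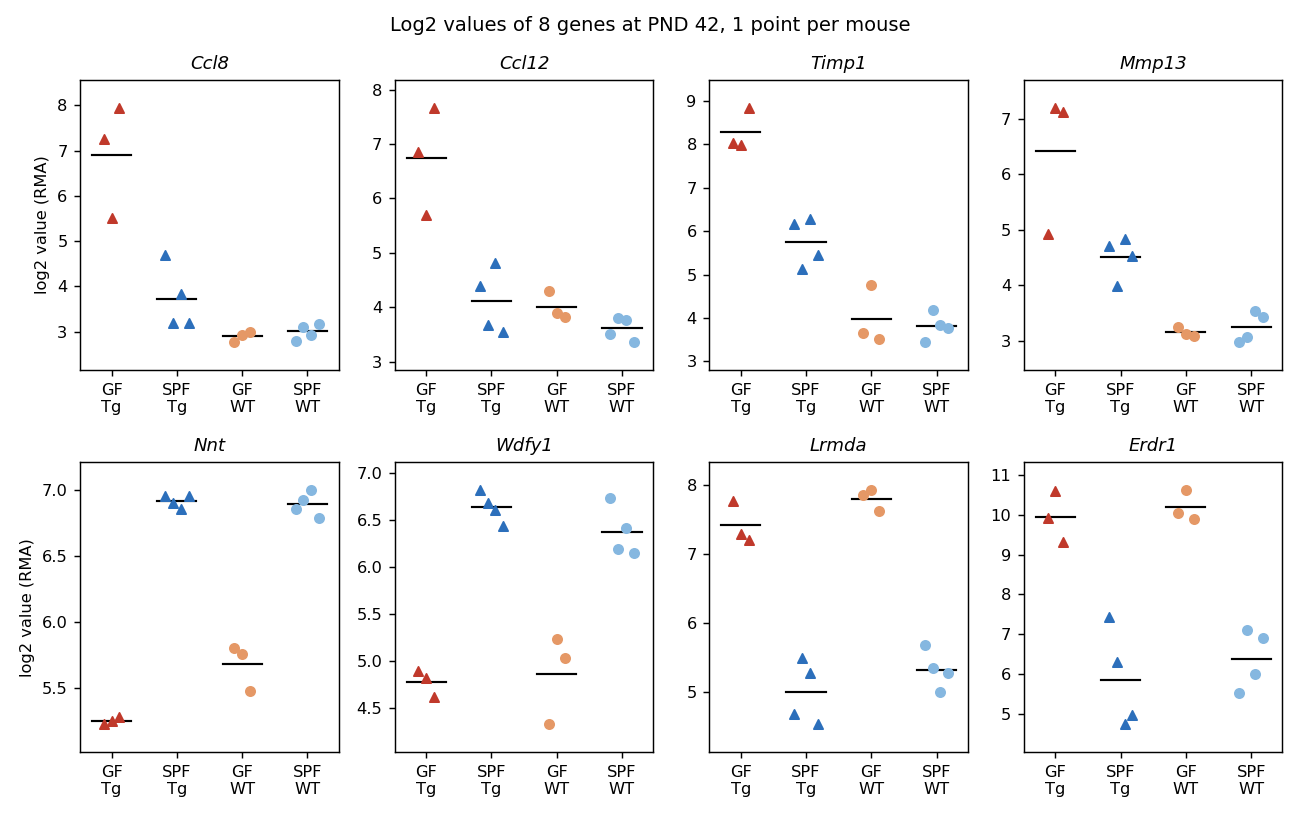
Log2 values (vertical axes) of 8 genes in each of the 14 arrays of PND 42 by group (horizontal axes), with triangles for Tg, circles for WT and a black line for each group mean. Ccl8, Ccl12, Timp1 and Mmp13 are high in the GF Tg mice and between 2.77 and 4.75 in both WT groups, whereas Nnt, Wdfy1, Lrmda and Erdr1 separate GF from SPF mice in both genotypes.

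The rise with the lowest adjusted p was that of a chemokine. Ccl8, an attractant of monocytes and T cells, read 7.25, 5.50 and 7.94 in the GF and 4.69, 3.20, 3.84 and 3.19 in the SPF Tg arrays. No GF array overlapped the SPF arrays, and 3 of the SPF arrays were near background. The difference was 3.17 ± 0.32 (SE, log2; limma adjusted p = 1.29e-06), or 8.99-fold, and it ranged from 2.65 to 3.87 when single Tg arrays were left out. In the 7 arrays fitted alone its adjusted p was 0.249. In WT mice Ccl8 was near background in every array, at 2.77 to 3.18.

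Ccl12, a ligand of the monocyte receptor Ccr2, read 6.85, 5.70 and 7.67 in GF against 4.40, 3.68, 4.81 and 3.55 in SPF Tg arrays, again without overlap. It rose by 2.63 ± 0.50 (limma adjusted p = 0.0228), and its WT arrays, at 3.82 to 4.30 in GF and 3.36 to 3.81 in SPF mice, were separated the same way (0.39, adjusted p = 1). Its call was lost without some single Tg arrays (4 of the 7), and with Xist as a covariate the adjusted p was 0.0516. Of the 18 CC chemokines measured (19 listed), these 2 rose and none fell, against 0.0823% and 0.052% of annotated features. For 8 of the 18, every GF array lay above every SPF array, against 3.68% of annotated features. The median difference of the list was 0.34. In WT mice 3 of the 18 were separated with GF above (4.09% of annotated features were) and none below (4.01%), with a median of 0.09. Ccl24 (2.79, 95% interval 1.04 to 4.53, adjusted p = 0.285) and Ccl7 (1.86, 0.91 to 2.80, adjusted p = 0.12) had the largest differences among those that missed the test. Ccl2, Ccl7, Ccl8 and Ccl12 resemble each other in sequence, and probes that bind more than 1 of them were not examined.

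Matrix genes were the other family with more than 1 rise. Timp1, an inhibitor of matrix metalloproteinases, read 8.02, 7.98 and 8.84 in GF and 6.16, 5.12, 6.29 and 5.44 in SPF Tg arrays. Every GF array was above every SPF array, by 2.53 ± 0.47 on average (limma adjusted p = 0.0172). Mmp13, a collagenase, read 4.93, 7.20 and 7.11 against 4.71, 4.00, 4.83 and 4.52, so that GF replicate 1 exceeded the highest SPF array by little. Its difference was 1.9 ± 0.33 (adjusted p = 0.00817). This SE comes from the pooled variance, while the SD of Mmp13 was 1.29 among the GF and 0.37 among the SPF Tg arrays. In the 7 arrays fitted alone its limma adjusted p was 0.411. Leaving out single Tg arrays ended the call of Timp1 and of Mmp13 in 3 of 7 cases each. Of 22 measured members of the matrix list (24 listed), these 2 rose and none fell, against 0.0823% and 0.052% of annotated features, and the median was 0.09. With Xist as a covariate the adjusted p of Timp1 was 0.0565. Mmp12, the macrophage elastase that marks the disease of Tg mice, was at 10.43, 10.39 and 10.62 in GF and 10.33, 9.95, 10.33 and 10.48 in SPF Tg arrays. These groups overlapped, with a difference of 0.20 (95% interval -0.63 to 1.04).

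Other genes that were low in both WT groups rose in GF against SPF Tg mice. Peg10, an imprinted gene of retrotransposon origin, read 4.95, 3.98 and 6.41 in GF and 3.01 to 3.51 in SPF Tg arrays, all of the latter near background, and it rose by 1.87 ± 0.37 (limma adjusted p = 0.0237). Without GF replicate 3 it differed by 1.22 (adjusted p = 0.296). Pecam1, an adhesion molecule of endothelium and leukocytes, read 4.34, 5.31 and 6.17 against 3.52 to 4.12 and rose by 1.58 ± 0.32 (adjusted p = 0.032). It was the only member of the 17 measured fibroblast and endothelial genes to rise (0.0823% of annotated features did). The median of that list was -0.04. Lipn, a lipase of the acid lipase family, rose by 1.51 ± 0.33 (adjusted p = 0.0482) and Ankrd55, an ankyrin repeat protein, by 1.62 ± 0.35 (adjusted p = 0.0478). The SPF Tg means of Lipn and Ankrd55, at 5.2 and 5.0, were already above their SPF WT means of 3.1 and 3.4. Serpina11, of the serine protease inhibitor family, rose by 1.23 ± 0.25 (adjusted p = 0.0268) and Defb25, a beta defensin, by 1.2 ± 0.22 (adjusted p = 0.0172). Their SPF Tg levels were near background in all arrays, at 3.41 to 3.62 and 3.09 to 3.71. Without GF replicate 3, Serpina11 differed by 0.80 (adjusted p = 0.307), and in the 7 arrays fitted alone its adjusted p was 0.457. With Xist as a covariate the adjusted p of Lipn was 0.0516 and that of Defb25 0.0573, and on GF replicate 3 alone that of Ankrd55 was 0.0638. In WT mice the housing differences of these 6 genes ran from -0.11 to 0.23. For all 6, every GF Tg array was above every SPF Tg array. On GF replicate 3 alone, Defb25 differed by 0.49 (adjusted p = 0.746). Defb25 was the member of the 28 measured antimicrobial and acute phase genes (30 listed) that rose, and none fell. The shares over all annotated features were 0.0823% and 0.052%.

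Nnt, Wdfy1 and Lrmda passed the test in both genotypes. Nnt, the mitochondrial transhydrogenase that makes NADPH, read 5.23, 5.25 and 5.28 in GF and 6.96, 6.90, 6.85 and 6.95 in SPF Tg arrays. It fell by 1.66 on the log2 scale (SE 0.12, limma adjusted p = 1.59e-09) in Tg and by 1.21 in WT mice (adjusted p = 1.63e-06). Nnt is known for a deletion that C57BL/6J mice carry and C57BL/6N mice do not.

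Wdfy1, an endosomal adaptor of Toll-like receptor signalling, read 4.89, 4.81 and 4.62 in GF and 6.82, 6.68, 6.61 and 6.44 in SPF Tg arrays. It fell by 1.86 (SE 0.21, limma adjusted p = 5e-06) in Tg and by 1.5 in WT mice (adjusted p = 0.000301). Of the 8 measured genes of a list of C57BL/6 substrain differences (10 listed), Nnt and Wdfy1 fell and none rose. Over all annotated features 0.052% fell and 0.0823% rose. The median of the list was -0.19 in Tg and -0.13 in WT mice. Rcsd1 of that list was at 4.52, 3.80 and 5.73 in GF and 3.10 to 3.42 in SPF Tg arrays (1.37, adjusted p = 0.0642), and its WT difference was -0.14. All mice bear the same strain label, so that substrain cannot be told apart from housing.

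Lrmda, named for melanocyte differentiation, read 7.76, 7.28 and 7.19 in GF and 4.67, 5.49, 5.27 and 4.53 in SPF Tg arrays. It rose by 2.42 ± 0.28 (limma adjusted p = 6.93e-06) in Tg and by 2.48 in WT mice (adjusted p = 7.21e-06). Erdr1, a gene of the pseudoautosomal region that sex chromosomes share, read 9.90, 10.59 and 9.32 against 7.43, 6.30, 4.74 and 4.98. It rose by 4.08 ± 0.86 (adjusted p = 0.0432) in Tg mice and differed by 3.80 in WT mice (adjusted p = 0.144). With Xist as a covariate the Tg difference was 3.09 (adjusted p = 0.187), and on GF replicate 3 alone it was 3.46 (adjusted p = 0.358). Emb, an adhesion molecule, rose by 1.17 ± 0.21 (adjusted p = 0.0092), and its WT arrays were separated the same way (0.67, adjusted p = 0.584). Its Tg adjusted p was 0.0526 with Xist as a covariate and 0.146 on GF replicate 3 alone. RefSeq places Emb and Nnt on chromosome 13 with 3 protein-coding genes between them. Il31ra and Ankrd55 lie on the same chromosome, with 28 and 30 such genes between them and Nnt. Their WT differences were 0.06 and 0.04. Whether these positions bear on the rises was not tested.

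Among the genes that fell, Enpp5, of the nucleotide pyrophosphatase family, read 3.55, 3.30 and 3.96 in GF and 4.59, 5.94, 5.07 and 5.76 in SPF Tg arrays. It fell by 1.73 (SE 0.23, limma adjusted p = 0.000131), and its WT difference was -0.48. Marchf4, a membrane ubiquitin ligase, fell by 1.47 (adjusted p = 0.041), with a WT difference of -1.10 and no overlap in either genotype. Mcam, an adhesion molecule, fell by 1.27 (adjusted p = 0.032). Sox7, a transcription factor of endothelial cells, fell by 1.39 (adjusted p = 0.0192) and Arnt2, a partner of basic helix-loop-helix factors, by 1.03 (adjusted p = 0.0172). With Xist as a covariate Mcam (adjusted p = 0.0707), Sox7 (0.0526) and Arnt2 (0.0674) lost their calls, and on GF replicate 3 alone Sox7 (0.444) and Arnt2 (0.629) did. Sox7 and Arnt2 were the called genes whose groups overlapped: GF replicate 3 read 5.25 for Sox7 and 5.51 for Arnt2, above the lowest SPF arrays at 5.23 and 5.47. Arnt2 was the only member of the 20 measured aryl hydrocarbon receptor genes that fell, and none rose, against 0.052% and 0.0823% of annotated features.

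Another 10 annotated features passed the adjusted p with less than 2-fold, 5 higher (0.43 to 0.94) and 5 lower (-0.70 to -0.98). Among them was Il31ra, the receptor of the T cell cytokine interleukin 31, at 4.77, 5.11 and 4.85 in GF and 3.77 to 4.16 in SPF Tg arrays. It rose by 0.94 ± 0.20 (limma adjusted p = 0.049), as 0.0823% of annotated features did, while 0.052% fell. Of 17 measured type 2 cytokines and receptors (20 listed) none fell and only Il31ra rose. Its adjusted p was 0.0887 with Xist as a covariate and 0.274 on GF replicate 3 alone. Dysf, Synj2 and Zmat3, chosen after their values were seen, fell by 0.70, 0.72 and 0.71 and were separated the same way in WT mice, where they missed the test. With Xist as a covariate all of these missed it in Tg mice too (adjusted p = 0.146, 0.063 and 0.0573), and on GF replicate 3 alone Dysf (0.236) and Zmat3 (0.115) did. Features without an annotation added 10 at the adjusted p, 7 of them lower in GF mice, and 8 of these 10 also passed in WT mice.

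The housing difference in WT mice comes from other animals and shares no array with that in Tg mice. In WT mice 4 annotated features were called (0.0173%), 1 higher and 3 lower, and 7 passed the adjusted p (0.0303%), while 4.62% had an unadjusted p under 0.05. Nnt, Wdfy1 and Lrmda were the features that passed in both genotypes. Of the 31 features that passed in Tg mice, 26 differed in the same direction in WT mice. The share of all annotated features that do so was not counted, so that no excess can be read from the 26. For 29 of the 31 the Tg groups did not overlap, and for 11 of these the WT groups were also separated, in the same direction. Across all annotated features, 0.351% had every GF array above every SPF array in both genotypes and 0.628% had every GF array below. The correlation between the housing differences of the genotypes was 0.308 over 23099 features, which are not independent.

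**Figure D2:**
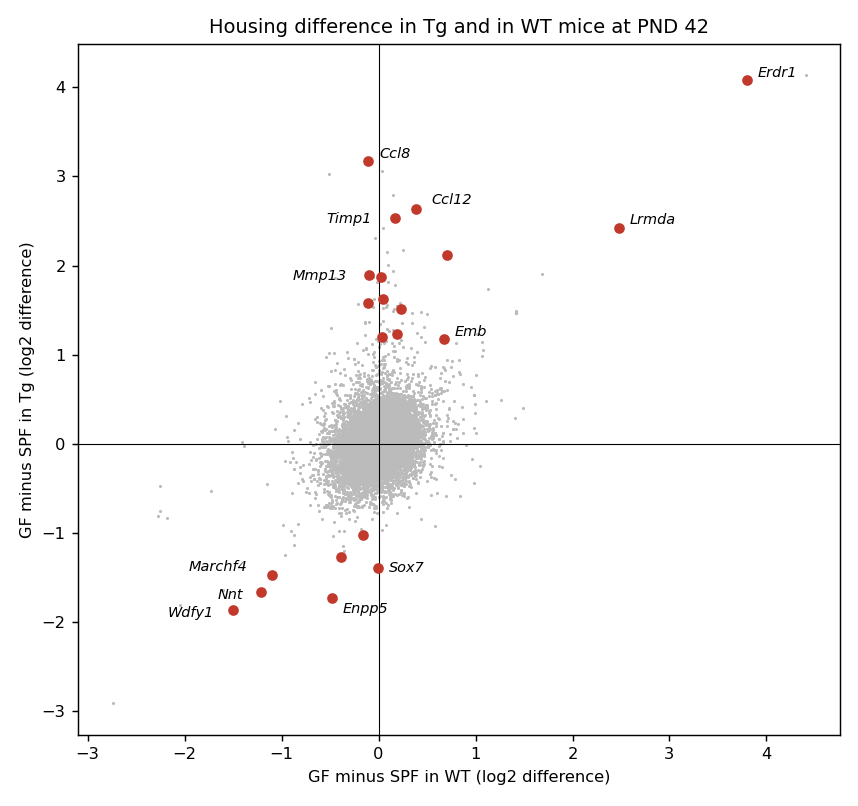
Log2 difference of GF minus SPF in Tg (vertical axis) against the same in WT mice (horizontal axis) for the 23099 annotated features, with the 21 called features in red and 12 of them named. Lrmda, Erdr1, Nnt, Wdfy1 and Marchf4 lie far from 0 on both axes, while Ccl8, Timp1 and Mmp13 lie near 0 on the WT axis.

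The interaction of housing with genotype asks which of these differences depends on the transgene. Ccl8 was the only annotated feature that passed (1 of 23099, 0.00433%), and 3.16% had an unadjusted p under 0.05. The housing difference of Ccl8 was larger by 3.27 ± 0.46 in Tg than in WT mice (limma adjusted p = 0.00183). Every WT array was near background for Ccl8, so that a fall in WT mice could not have been measured and the value is close to the Tg difference itself. It was 2.75 to 3.97 when single arrays were left out, with adjusted p of at most 0.014, but in a fit of the 14 arrays of PND 42 alone the adjusted p was 0.441. For the other genes above, no difference between the genotypes was shown. The interaction of Timp1 was 2.36, that of Ccl12 2.24 and that of Mmp13 2.00, with adjusted p of 0.96 or more. For the same genes the Tg minus WT difference, which uses the same Tg arrays, was 1.94 in SPF and 4.31 in GF mice for Timp1, 0.50 and 2.74 for Ccl12, 1.26 and 3.26 for Mmp13, and 0.73 and 4.00 for Ccl8.

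The alternative activation genes of Tg mice did not pass. Retnla, a secreted product of interleukin 4 and 13 signalling, read 9.88, 9.72 and 10.71 in GF and 9.61, 6.08, 8.76 and 7.94 in SPF Tg arrays. The groups did not overlap, and the difference of 2.00 had a 95% interval of 0.40 to 3.61 (limma adjusted p = 0.464). Arg1, which consumes arginine, read 9.55, 10.39 and 10.46 against 8.72, 7.68, 8.99 and 8.66, also without overlap (1.62, 0.22 to 3.03, adjusted p = 0.538). In the 14 arrays of PND 42 fitted alone, Arg1 (adjusted p = 0.0336) and Ccl17 (adjusted p = 0.0403) passed. Ccl17, an attractant of T helper 2 cells, differed by 0.86 (-0.52 to 2.24, adjusted p = 0.897). For scale, Tg exceeded WT mice in SPF housing by 4.73 for Retnla, 4.85 for Arg1, 2.89 for Ccl17 and 4.66 for Mmp12.

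Of the 36 alternative activation genes, all measured, none passed the adjusted test in limma, 9 had an unadjusted p under 0.05 in the direction of GF (4.22% of annotated features did) and none in that of SPF (3.86%). In 8 every GF Tg array was above every SPF Tg array (3.68% of annotated features), and in none below (4.87%). The median was 0.19 in Tg and -0.04 in WT mice. The list mean was 8.02 to 8.30 in GF and 7.34 to 7.81 in SPF Tg arrays. Chil3 differed by little (0.03, -0.41 to 0.48), and Chil4 differed by 0.69 (0.22 to 1.15, adjusted p = 0.335). Of the cytokines that drive this programme, Il13 read 5.77, 6.80 and 7.67 in GF and 7.29, 5.92, 4.97 and 5.70 in SPF Tg arrays and overlapped (0.78, adjusted p = 0.756). Il4 read 3.90, 3.54 and 5.78 against 3.07 to 3.45 (1.13, adjusted p = 0.137). Its value in GF replicate 3 stood above the rest, and without that array the difference was 0.45 (adjusted p = 0.802).

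**Figure D3:**
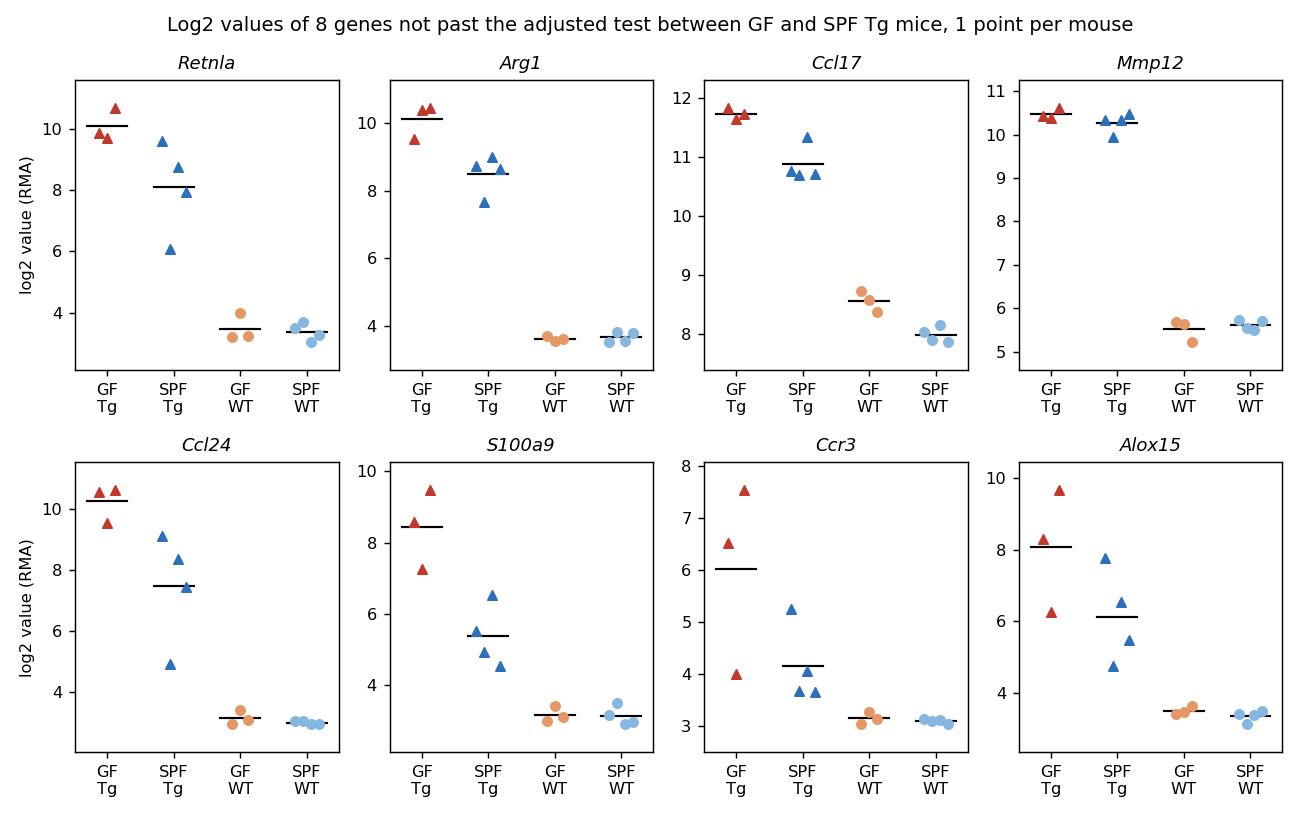
Log2 values (vertical axes) of 8 genes in each of the 14 arrays of PND 42 by group (horizontal axes), with triangles for Tg, circles for WT and a black line for each group mean. Retnla, Arg1, Ccl24 and S100a9 are higher in all GF than in all SPF Tg mice, but they spread widely in Tg mice and missed the adjusted test over all 36 arrays, and Mmp12 overlaps.

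Receptors for bacterial products did not pass the test. Of 37 measured microbial pattern receptors and their adaptors (42 listed) none passed, and the median was -0.02. In each direction 2 had an unadjusted p under 0.05, against 4.22% of annotated features towards GF and 3.86% towards SPF. Tlr2 differed by 0.25 (95% interval -0.02 to 0.51), Tlr4 by -0.03 (-0.31 to 0.24) and Cd14, the lipopolysaccharide co-receptor, by 0.12 (-0.21 to 0.46). Tlr3 had the largest difference of the list, at 5.88, 5.36 and 5.37 in GF and 6.17 to 6.74 in SPF Tg arrays (-0.88, adjusted p = 0.176). Marco, a scavenger receptor that binds bacteria, read 8.58, 8.58 and 8.38 against 9.67, 9.33, 9.12 and 9.49, with no overlap (-0.89, -1.40 to -0.39, adjusted p = 0.181). In WT mice it differed by -0.83 (adjusted p = 0.58). Nos2 (0.00, -0.95 to 0.95) and Saa3 (0.09, -1.35 to 1.52), which bacterial products induce, were near background in all 7 Tg arrays. Lcn2, another such gene, read 3.71 to 4.22 (0.21, -1.35 to 1.77).

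Of 34 measured classical activation genes none passed, 8 had an unadjusted p under 0.05 towards GF (4.22% of annotated features did) and none towards SPF (3.86%), and 7 had every GF array above every SPF array (3.68%), with a median of 0.17. Ccl2, an attractant of monocytes, read 7.03, 7.65 and 7.48 in GF and 5.02, 5.37, 7.01 and 6.06 in SPF Tg arrays (1.52, 95% interval 0.43 to 2.61, adjusted p = 0.379), and Acod1, which makes itaconate, read 5.79, 5.89 and 6.87 against 3.99 to 5.54 (1.19, adjusted p = 0.634). Il1b differed by 0.98 (0.18 to 1.78, adjusted p = 0.48), Cxcl2 by 0.85 (0.06 to 1.63, adjusted p = 0.588), Tnf by 0.04 (-0.57 to 0.64) and Cxcl1 by -0.05 (-0.87 to 0.78). Of 15 CXC chemokines none passed, 5 were separated with GF above (3.68% of annotated features were), and the median was 0.32. In WT mice 4 of the 15 were separated with GF above (4.09% of annotated features were) and 1 below (4.01%), with a median of -0.05. Pf4, a chemokine of platelets and macrophages, differed by 1.53 (adjusted p = 0.372) and Cxcl3, an attractant of neutrophils, by 1.35 (adjusted p = 0.473), both without overlap. Of 42 interferon-stimulated genes (50 listed) none passed, 9 were separated with GF above (3.68% of annotated features) and none below (4.87%), and the median was 0.22 in Tg and -0.07 in WT mice. Of the 20 NF-kB targets none passed, and their median was -0.03. Tnip3, an inhibitor of NF-kB signalling, read 7.11, 7.40 and 7.76 against 5.91 to 6.38 (1.24, adjusted p = 0.199).

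**Figure D4:**
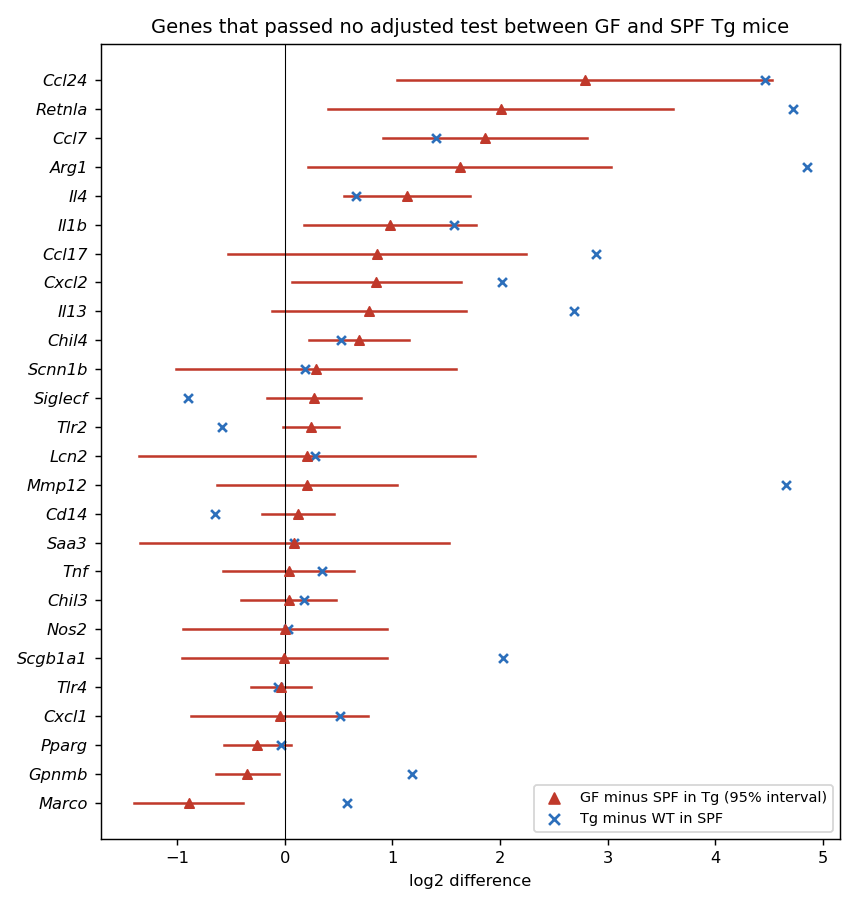
Log2 difference of GF minus SPF in Tg mice (triangles) with its 95% interval (lines) for 26 genes that missed the adjusted test, with the Tg minus WT difference in SPF mice as crosses, which uses the same SPF Tg arrays. For Mmp12, Retnla, Arg1 and Ccl17 the crosses at 2.89 to 4.85 lie above the upper ends of the intervals.

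Alveolar macrophage identity genes had differences below 0 on balance. Of 27 measured (30 listed) none passed, none had an unadjusted p under 0.05 towards GF (4.22% of annotated features did) and 5 did towards SPF (3.86%). In 6 every GF Tg array was below every SPF Tg array, against 4.87% of annotated features, and in 1 above (3.68%). The median was -0.09. In WT mice 4 of the 27 were separated with GF below (4.01% of annotated features) and 1 above (4.09%), with a median of -0.03. Siglecf differed by 0.27 (-0.17 to 0.71) and Pparg, the transcription factor that sets this identity, by -0.26 (-0.57 to 0.06). Gpnmb, a lysosomal glycoprotein of lipid-laden macrophages, differed by -0.35 (-0.64 to -0.06, adjusted p = 0.50). Of 28 measured cholesterol and fatty acid synthesis genes (32 listed) none passed. An unadjusted p under 0.05 was found for 6 towards SPF (3.86% of annotated features) and for none towards GF (4.22%). In Tg mice 8 of these 28 genes were separated with GF below (4.87%). Their median was -0.23 in Tg but 0.20 in WT mice, where 4 were separated with GF above (4.09% of annotated features were) and none below (4.01%). This difference of the genotypes was not tested. Hsd17b7, an enzyme of that pathway, read 6.19, 6.45 and 6.05 in GF and 6.85 to 7.48 in SPF Tg arrays (-0.92, adjusted p = 0.304).

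**Figure D5:**
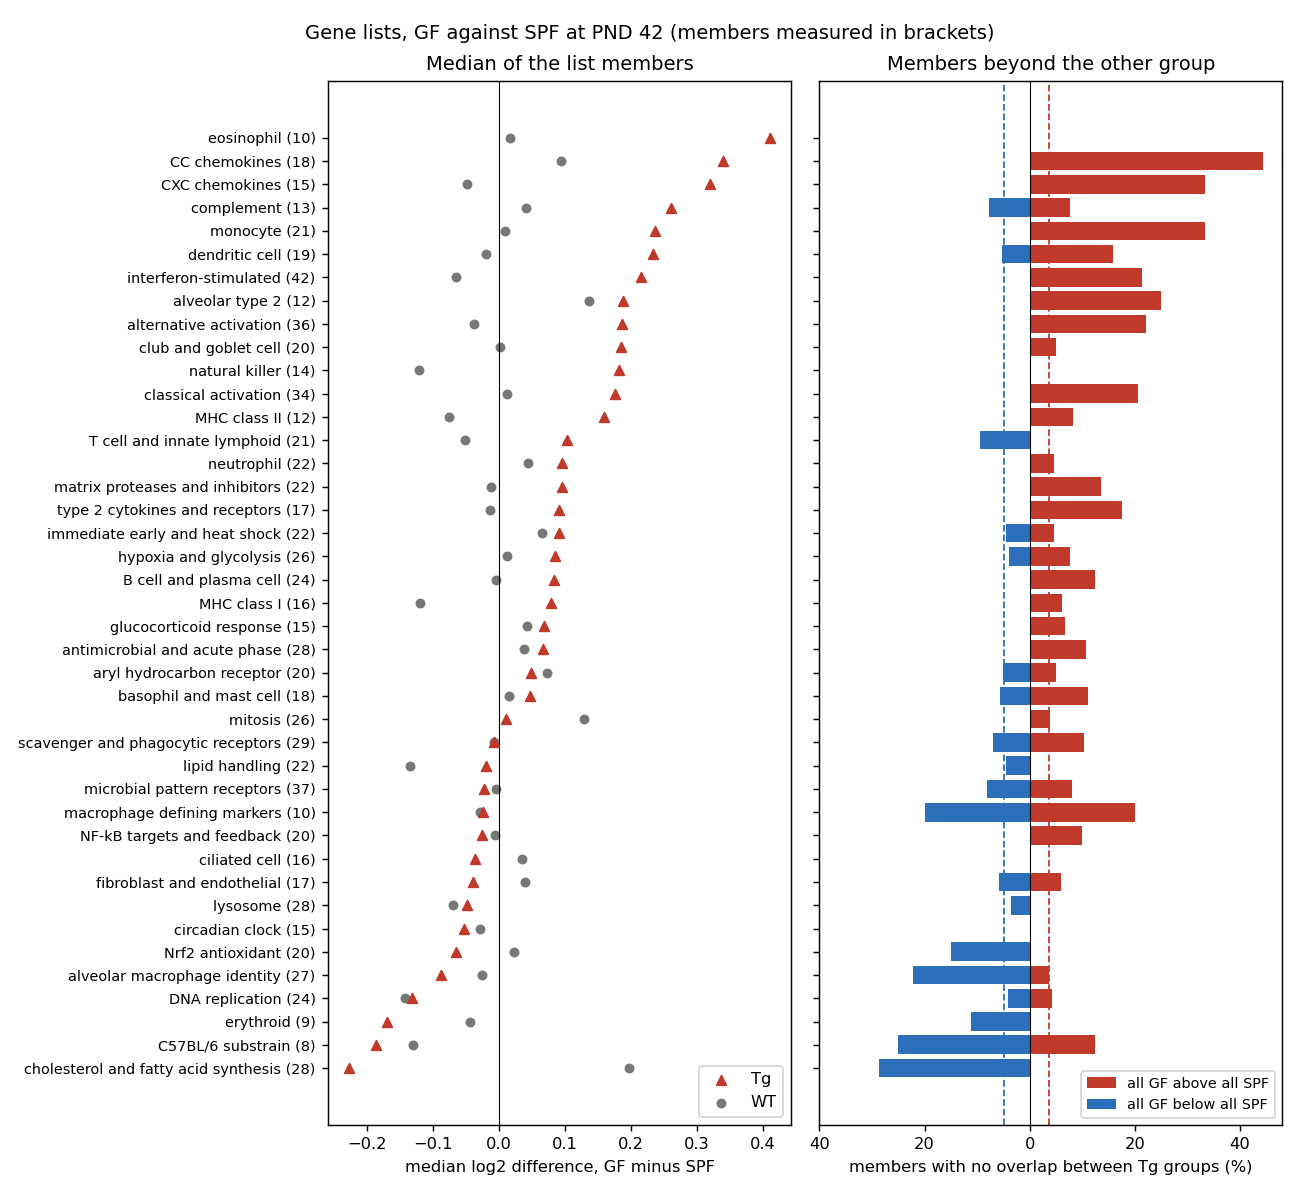
Left, median log2 difference of GF minus SPF for the members of each list in Tg (triangles) and WT mice (circles). Right, share of members (%) whose GF Tg arrays all lie above (red) or below (blue) all SPF Tg arrays, with dashed lines at 3.68% and 4.87% for all annotated features. CC chemokines, CXC chemokines and monocyte genes have the highest shares above, and cholesterol and fatty acid synthesis genes the highest share below.

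Genes of other lavage cells were high in some of the same arrays. Granulocyte genes remained visible in Tg arrays in spite of the Ly-6G depletion. S100a9, a calcium-binding protein of neutrophils and monocytes, read 8.59, 7.25 and 9.47 in GF and 5.51, 4.94, 6.52 and 4.54 in SPF Tg arrays (3.06, adjusted p = 0.205). Ccr3, the eotaxin receptor of eosinophils, read 6.53, 4.01 and 7.54 against 5.25, 3.68, 4.06 and 3.66 (1.86, adjusted p = 0.181), and Alox15, a lipoxygenase of eosinophils and macrophages, read 8.29, 6.26 and 9.66 against 7.77, 4.75, 6.53 and 5.47. As for Ccl8 and Ccl12, GF replicate 3 was the highest and replicate 2 the lowest of the GF arrays for each of them. This order was not particular to granulocyte genes. The list means of interferon-stimulated (5.50, 5.37 and 5.88) and complement genes (5.88, 5.55 and 6.09) had it too. Those of dendritic cell genes (5.30, 5.43 and 5.87) did not. What sets the order was not tested.

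The mean of the 10 measured eosinophil genes (14 listed) was 5.23 to 6.83 in GF and 4.97 to 5.79 in SPF Tg arrays. Both Tg group means were near background for 3 of them. The SPF Tg mean of Epx, the eosinophil peroxidase, was near background, with values of 2.99 to 3.44. None of the 10 passed and none was separated, and their median difference was 0.41 in Tg and 0.02 in WT mice. Of them, 6 had an unadjusted p under 0.05 towards GF (4.22% of annotated features did) and 1 towards SPF (3.86%). The mean of the 22 neutrophil genes was 4.81 to 5.25 against 4.56 to 4.82, with both Tg group means near background for 10. The SPF Tg means of Elane and Mpo were near background. The mean of the 21 monocyte genes was 6.79 to 7.09 against 6.39 to 6.64, and 7 were separated with GF above (3.68% of annotated features were). Dendritic cell genes gave 5.30 to 5.87 against 5.08 to 5.47, and genes of T and innate lymphoid cells 4.58 to 5.20 against 4.38 to 4.92. From bulk values alone, more cells of a type and more RNA per cell cannot be told apart. Cell counts of these lavages were not analysed here, and the part of these cells in the rises of Ccl8, Ccl12, Timp1 and the other genes was not tested. Epithelial RNA was present as well. Scgb1a1 of club cells differed by 0.00 (-0.95 to 0.95), while Sftpc, a surfactant protein of alveolar type 2 cells, read 6.90, 7.16 and 8.15 against 4.97 to 6.06 (1.9, adjusted p = 0.0578). It differed by 1.68 in WT mice. Scnn1b, the transgene, was near background in most arrays (3.47, 3.99 and 4.18 in GF, 3.41 to 3.69 in SPF Tg) and does not check the genotype labels here. The other 20 lists, of cell types and of processes from antigen presentation to the cell cycle, had no member that passed on the feature standing for it. Their medians ran from -0.17 for erythroid to 0.26 for complement genes. Nlrc5 of the MHC class I list differed by 0.96 on that feature (limma adjusted p = 0.682). Another feature of Nlrc5, near background in SPF Tg arrays at 3.20 to 3.26, did pass (0.90, adjusted p = 0.0324). With Xist as a covariate its adjusted p was 0.0874.

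Genes that already differed between Tg and WT mice in early life were taken from arrays that are not among the 7 compared. Those arrays enter the adjusted test only through the pooled variance. Of 311 features higher in Tg than WT mice at PND 3, 41 (13%) had every adult GF Tg array above every SPF Tg array and 5 (1.61%) below, against 3.68% and 4.87% of annotated features, with a median difference of 0.16. Of 154 features higher in Tg mice at PND 10, 16 (10.4%) were above and 7 (4.55%) below, with a median of 0.11. In WT mice the medians of these features were 0.01 and -0.03. Of the 311, 1 passed the adjusted test in adult GF against SPF Tg mice, and of the 154 none did (0.134% of annotated features). The same features had median Tg minus WT differences of 0.66 and 1.27 in SPF adults, which use the same SPF Tg arrays. Of 71 features lower in Tg mice at PND 3, 2 (2.82%) were above and 7 (9.86%) below (median -0.08). Among the 71, 1 fell, against 0.052% of annotated features.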

How the data were processed

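Amplified RNA of lavage macrophages had been hybridised to Mouse Gene 1.0 ST arrays (Affymetrix). The authors deposited log2 values made in Partek (6.5 in the submitters' processing notes) with RMA, that is background adjustment, quantile normalization and median polish, so that a value is comparable between arrays but not between features. The study's methods name mm9 as the build of the array annotation, and no coordinate of that build is used here. Of 35556 features, 6616 without annotation, numbered below the first annotated one, were presumed to be controls and left out. Of the 28940 analysed, 23099 had a gene annotation (21218 with 1 symbol, 1881 with several). The highest-mean feature stands for a gene. No column was unused (0).

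Group means of all 36 arrays (10 groups, 26 residual degrees of freedom) were modelled in limma 3.58.1 (R 4.3.3), and two-sided moderated tests of the contrasts were adjusted after Benjamini-Hochberg over the analysed features. Calls needed both 2-fold and an adjusted p of at most 0.05. "Rose" and "fell" mean an adjusted p of at most 0.05. Intervals are 95% intervals of the fit. P-values measure the spread between single mice, or pools of pups at younger ages. RefSeq (GRCm38.p6) changed no symbol of the annotation (0) and gave neighbours and start regions, and figures were drawn with matplotlib 3.10.9.

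The comparison, the lists (42, of which 27 were of processes and 15 of cell types) and the genes named were chosen with earlier results of these data known. Named were the 15 largest called rises and falls with a proper gene symbol, the largest interaction calls, up to 4 passing and 2 other members of a described list, and a fixed panel that runs from Scnn1b to Nr1d1. Outside this rule, Epx, Elane, Mpo and Eif2s3y are given as defining markers. Of these, Il1rl1 and Ddx3y are not analysed here, and Dbp and Nr1d1 lie on features with several symbols.

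The test between GF and SPF Tg mice was run on simulated data with these group sizes and 28940 features. The spread was the pooled SD of each feature times 1 factor per group, around a mean common to all groups. Single genes that vary more in GF Tg mice than in other groups were not simulated, so that the counts do not cover them. At the adjusted p alone the test found 20 of 50 features that differed by 1.5-fold and 36 of 50 at 2-fold. It found all 50 at 3-fold and at 4-fold, with 5 false calls. With the 2-fold limit as well, it found 0 of 50 at 1.5-fold, 20 of 50 at 2-fold and all 50 at 3-fold and at 4-fold. Alternatives changed the limits, the arrays fitted, weights, variance prior, normalization, a filter on dim features, the features tested, the replicate number as a block, and the arrays, each omitted in turn. The use of Xist as a covariate, and leaving out GF arrays with high Xist, were added after seeing the data.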

Additional observations from a re-analysis of the deposited data

Results flagged for a closer look

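The housing difference of Ccl8 was larger in Tg than in WT mice by 3.27 on the log2 scale, in a test of the difference itself, with every WT array near background. Among 56 genes examined, 5 single values stood apart from the other 3 SPF Tg arrays by a gap above Dixon's critical value, which chance exceeds in about 1 group in 20. They were Grm6 at 3.49 in replicate 1, Defb25 at 3.09 in replicate 2, Zmat3 at 7.04 in replicate 4, and Ccl17 at 11.33 and Saa3 at 3.70 in replicate 3.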

How the results depend on the processing

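The 21 features called between GF and SPF Tg mice became 7 at an adjusted p of 0.01, 11 by the methods' contrast without moderation, 33 with array weights, 3 in the 7 arrays alone and 6 to 46 when single arrays were left out. They became 148 when both GF Tg arrays with high Xist were left out, which leaves 1 GF array that is assumed to vary like the other groups. The 4 calls in WT mice became 7 without a fold limit, 11 with array weights and 7 with Xist as a covariate, and lay between 3 and 6 when single arrays were left out. The 1 interaction call became 0 in the 14 arrays of PND 42 (limma; 1161 features there had an unadjusted p under 0.05, and 0 were called without moderation). It became 2 with array weights, without dim features, with 1 feature per gene and with Xist as a covariate, 30 without the GF arrays of high Xist, and 1 to 3 when single arrays were left out. The cause of these shifts was not tested. With a replicate block 22 features were called in Tg mice, 4 in WT mice and 1 in the interaction. Replicate numbers pair no mice: deviations of same-numbered GF and SPF arrays correlated at 0.055 to 0.092 in Tg and -0.043 to -0.010 in WT mice. Signal near background in SPF Tg mice (8 of the 31 features) limits what can be said of sizes.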
